A study of Mus musculus with 18 samples.

Results

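The genes described here are 10 genes of the mTOR (mechanistic target of rapamycin) pathway, chosen by symbol and found in the expression table by NCBI gene ID: the kinase Mtor, the complex-defining subunits Rptor and Rictor, the inhibitory pair Tsc1 and Tsc2, the stress-induced brakes Ddit4, Sesn1, Sesn2 and Sesn3, and the Rag GTPase Rragd. All 10 of them were among the 16545 genes of the table. Expression was measured by RNA-seq in B cells purified from spleen and stimulated in vitro with lipopolysaccharide (LPS), a bacterial product that activates B cells through Toll-like receptors. The B-CKO mice were Zbtb24 loxp/loxp and carried 1 copy of a Cre recombinase allele active in B-lineage cells, which removes part of Zbtb24, a zinc-finger protein gene, in those cells. The control mice were littermates with the same Cre allele and both Zbtb24 alleles intact, so that every mouse of both groups carried Cre. There were 3 libraries, numbered 1 to 3 and each from 1 mouse, for each genotype at 0 h, 24 h and 48 h of LPS (labelled D0, D1 and D2), 18 in all, and the mice were on a C57BL/6 background. The labels do not say whether libraries of the same number at different time points come from the same mouse. The age and sex of these mice and the LPS dose for the spleen cells are not given in the sources used here. Cells cultured without LPS were not analysed here, so LPS and time in culture cannot be told apart in any comparison between time points. The values are FPKM, sequenced fragments scaled to gene length and library size.

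The mTOR kinase works in a pair of complexes. Together with raptor (Rptor) it forms mTORC1, which drives protein synthesis and growth when nutrients and growth factors are plentiful, and together with rictor (Rictor) it forms mTORC2, which phosphorylates AKT. The tuberin–hamartin complex (Tsc1 and Tsc2) holds mTORC1 off by switching off the small GTPase RHEB, the product of Ddit4 (also called REDD1) acts through that complex under hypoxia and other stress, and the sestrins restrain the amino-acid arm, in which the Rag GTPases bring mTORC1 to the lysosome. Resting B cells are small, and LPS makes them grow and divide before some become plasma cells, a change in which mTORC1 takes part. mRNA levels do not give the activity of any of these proteins.

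The B cell identity of the libraries was clear: the summed level of 6 B cell markers was 3944 to 5229.9 FPKM at 0 h and 2045 to 2529.5 FPKM at 24 h, against 24.9 to 36.8 and 9.93 to 15.4 FPKM for 9 T cell markers. The sums of 8 myeloid and 4 NK cell markers at 0 h were 3.94 to 9.96 and 1.72 to 2.88 FPKM, and that of 6 erythroid markers ran from 11.7 to 71.1 FPKM. Zbtb24 itself was lower in every B-CKO library than in every control library of the same time point, with means of 12.5 against 45.4 FPKM at 0 h, 10.9 against 17.6 at 24 h and 10.4 against 15.2 at 48 h, none past limma's threshold (adjusted p = 0.120, 0.0586 and 0.267). Libraries at 0 h were the more variable ones, with a median SD between replicates of 0.171 and 0.159 on the log2 scale in control and B-CKO mice, against 0.0556 and 0.0537 at 24 h. They also stood apart by 12 immediate early genes, the first genes switched on when cells are handled or stimulated, which summed to 3475 to 5408 FPKM at 0 h, 305 to 346 at 24 h and 404 to 474 at 48 h. Their part in the differences between time points was not tested.

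The promoters of the members, taken from RefSeq on GRCm38.p6 as 250 bases before to 50 bases after each start, were GC-rich: the 11 windows of the 10 genes had a median of 64.7% GC and 23 CpG dinucleotides, against 52.7% and 7 over 32851 promoters. They were searched on both strands for the E-box core CACGTG, the forkhead box GTAAACA, the C/EBP-ATF element TGATGCAA and the ZBTB24 motif CAGGACCT, which do not overlap with one another, and for the hypoxia response core ACGTG, which lies inside the E-box core and was added after the expression values were seen. The forkhead box was found in 1 member window (Sesn1, 23 bases after the start; 3.65% of all promoters hold it) and the hypoxia response core in 2 (Ddit4 and Rptor, 187 and 34 bases before the start; 19.6% of all promoters). Sesn1 has 2 windows, and the one not printed below, which starts at chr10:41887189, holds none of the motifs. The other 3 motifs, held by 7.15%, 0.895% and 1.99% of all promoters, were found in none of the 11 windows. The 4 sequences below, cut at 30 bases after the start, are those of the gene that rose most at 48 h (Ddit4), of a gene with the same core that fell at that time (Rptor), and of the pair of sestrins that fell most at 24 h, with (Sesn1) and without (Sesn3) a forkhead box. They are at chr10:59951741-59952020, minus strand; chr11:119602655-119602934, plus strand; chr10:41810324-41810603, plus strand; and chr9:14276051-14276330, plus strand. Each is written 5′ to 3′ along its gene, and capitals mark the matched motif, on either strand.
Ddit4: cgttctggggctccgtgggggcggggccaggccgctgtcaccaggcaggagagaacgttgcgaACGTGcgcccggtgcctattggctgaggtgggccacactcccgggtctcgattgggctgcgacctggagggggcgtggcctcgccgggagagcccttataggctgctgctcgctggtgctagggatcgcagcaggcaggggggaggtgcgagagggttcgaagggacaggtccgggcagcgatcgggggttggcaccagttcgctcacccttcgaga
Rptor: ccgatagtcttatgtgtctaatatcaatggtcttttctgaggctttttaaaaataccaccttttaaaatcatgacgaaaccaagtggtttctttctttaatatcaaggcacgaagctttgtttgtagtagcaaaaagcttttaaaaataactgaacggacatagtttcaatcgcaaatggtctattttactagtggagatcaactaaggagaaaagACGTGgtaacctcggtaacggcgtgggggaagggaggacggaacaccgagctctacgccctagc
Sesn1: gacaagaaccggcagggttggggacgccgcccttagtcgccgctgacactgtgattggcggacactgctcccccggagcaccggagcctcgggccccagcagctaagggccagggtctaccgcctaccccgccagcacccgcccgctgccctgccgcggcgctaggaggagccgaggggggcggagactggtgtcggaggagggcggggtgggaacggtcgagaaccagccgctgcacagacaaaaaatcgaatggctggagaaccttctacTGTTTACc
Sesn3: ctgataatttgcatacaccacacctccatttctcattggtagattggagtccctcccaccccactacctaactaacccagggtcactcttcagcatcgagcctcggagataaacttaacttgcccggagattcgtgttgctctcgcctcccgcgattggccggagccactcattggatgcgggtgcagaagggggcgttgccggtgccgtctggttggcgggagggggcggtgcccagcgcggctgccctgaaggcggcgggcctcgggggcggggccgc

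Over the time in LPS these genes split into sets with different courses, and the courses were similar in control and B-CKO cells. By 24 h the mTORC2 subunit Rictor, Tsc1, Tsc2, Sesn1, Sesn3 and Rragd had fallen in control and in B-CKO cells, Sesn1 5.06-fold in controls, while Mtor and Rptor were higher in every 24 h library than in every 0 h library. By 48 h Ddit4 had risen 6.58-fold over its 24 h level in controls and 10.5-fold in B-CKO cells, and Mtor, Rptor and Tsc2 had fallen. In limma's moderated test with Benjamini-Hochberg adjustment over all genes, control cells at 24 h against 0 h gave 0 members higher and 7 lower, where 57.4% of the 15531 genes tested were called (26.7% higher and 30.7% lower). Their median log2 fold change was -0.59, beside -0.02 over all genes tested. The same comparison in B-CKO cells gave 2 higher and 6 lower (59.8% of genes called, 27.5% higher and 32.3% lower; median -0.66, beside -0.02). From 24 h to 48 h, 4 members rose and 4 fell in control cells (44.9% of genes called, 20.1% higher and 24.8% lower), and 4 rose and 3 fell in B-CKO cells (45.7%, 21.7% higher and 24% lower). With median-ratio scaling the balance over all genes at this step turned, from 3058 genes higher and 3762 lower to 3653 and 3012 in controls and from 3307 and 3657 to 3784 and 3111 in B-CKO cells. At 48 h against 0 h, 1 member was higher and 7 were lower in each genotype (56.8% of genes called in controls, 26.5% higher and 30.3% lower, and 57.6% in B-CKO cells, 27% higher and 30.7% lower). Without overlap between libraries, 2 members were higher and 7 lower at 24 h than at 0 h in controls (29.1% and 34.9% of genes), and 2 and 8 in B-CKO cells (29.8% and 35.7%). Those counts from 24 h to 48 h were 4 and 5 in controls (23.7% and 28.8%) and 4 and 4 in B-CKO cells (25.1% and 28.2%). A call was a common outcome among all genes, so the counts of members called say little, and the members are described by direction and size. In bulk samples such as these, fewer cells of a type and less RNA per cell cannot be told apart.

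**Figure D1:**
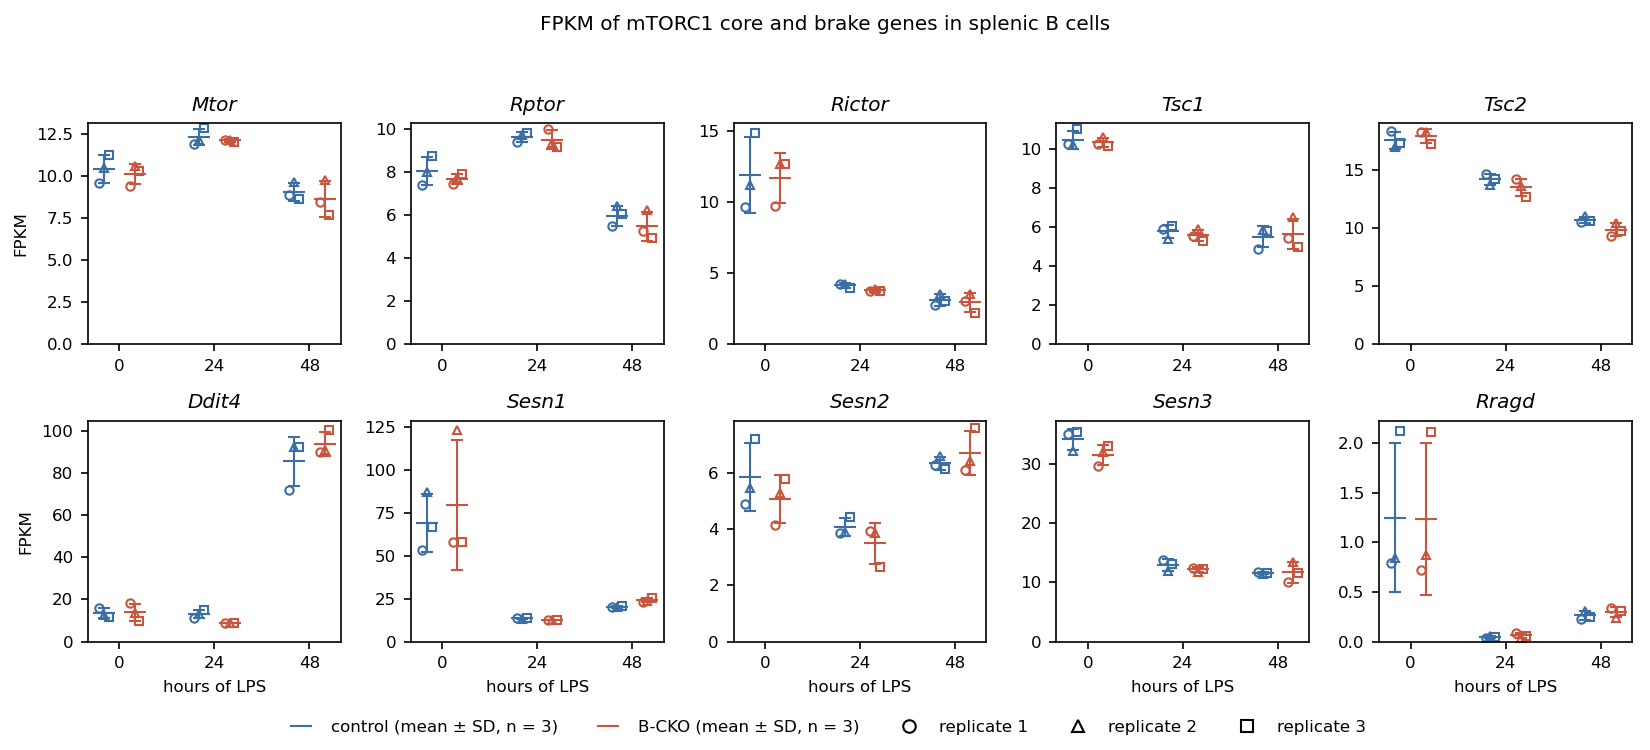
FPKM of the 10 genes (vertical axes, each from 0) at 0, 24 and 48 h of LPS (horizontal axes) in control (blue) and B-CKO (red) splenic B cells; symbols are single libraries by replicate number, horizontal bars and whiskers the mean ± SD of 3. Ddit4 stays below 20 FPKM at 0 h and 24 h and lies between 72.0 and 100.1 FPKM at 48 h, whereas Rictor, Sesn1, Sesn3 and Rragd are highest at 0 h.

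Among the core subunits, Mtor, the kinase, had the smallest span. Control libraries 1 to 3 had 9.57, 10.48 and 11.2 FPKM at 0 h, then 11.9, 12.1 and 12.8 at 24 h, and finally 8.85, 9.64 and 8.65 at 48 h. B-CKO libraries had 9.42, 10.6 and 10.3 FPKM at 0 h, then 12.1, 12.1 and 12.02 at 24 h, and finally 8.44, 9.77 and 7.69 at 48 h. All 24 h libraries lay above all 0 h and all 48 h libraries, with no overlap, in both genotypes. The rise to 24 h passed the test in B-CKO cells (log2 fold change 0.24 ± 0.071 (SE), limma adjusted p = 0.0261) but not in control cells (log2 fold change 0.22 ± 0.084 (SE), limma adjusted p = 0.0647). The fall to 48 h passed in both (log2 fold change -0.40 ± 0.056 (SE), limma adjusted p = 0.00133, in controls; log2 fold change -0.45 ± 0.082 (SE), limma adjusted p = 0.00399, in B-CKO cells). At 48 h against 0 h the log2 fold changes were -0.18 in controls and -0.21 in B-CKO cells (adjusted p = 0.147 and 0.149), and after rescaling to TPM they were -0.39 and -0.43 and both called (0.0193 and 0.0293). Without replicate 1 at both time points, the B-CKO fall from 24 h to 48 h was -0.43 and no longer called (limma adjusted p = 0.0756). Over the 6 groups the mean of Mtor spanned 1.42-fold, the narrowest range of the 10 genes.

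Rptor, the subunit by which mTORC1 recognises its substrates, followed Mtor. Its control libraries had 7.43, 8.03 and 8.74 FPKM at 0 h, then 9.40, 9.74 and 9.83 at 24 h, and finally 5.50, 6.42 and 6.04 at 48 h. Its B-CKO libraries had 7.45, 7.72 and 7.92 FPKM at 0 h, then 10.01, 9.35 and 9.16 at 24 h, and finally 5.25, 6.23 and 4.96 at 48 h. The 3 time points did not overlap in either genotype, in the order 24 h, 0 h, 48 h. As for Mtor, the rise to 24 h was called in B-CKO cells (log2 fold change 0.27 ± 0.075 (SE), limma adjusted p = 0.0189) and not in control cells (log2 fold change 0.24 ± 0.086 (SE), limma adjusted p = 0.0567). The fall from 24 h to 48 h was called in both, with log2 fold changes of -0.61 (SE 0.064, adjusted p = 3.97e-04) and -0.70 (SE 0.086, adjusted p = 6.73e-04). The early rises of Mtor and Rptor are at the edge of the test: rescaling each library to TPM left log2 fold changes of 0.09 and 0.13 in B-CKO cells (adjusted p = 0.372 and 0.214), and leaving out any B-CKO library at 24 h ended the call for Mtor (adjusted p = 0.0810 to 0.0905), as leaving out replicate 1 or 2 did for Rptor (0.0871 and 0.0614). The control rises passed with genes under 1 FPKM left out (adjusted p = 0.0487 for Mtor and 0.0370 for Rptor). At 48 h against 0 h Rptor was lower by 0.38 in controls and 0.43 in B-CKO cells (limma adjusted p = 0.0212 and 0.0136). On leaving out libraries these adjusted p ran up to 0.103 and 0.0950.

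Rictor, which defines mTORC2, went the other way. The control libraries had 9.64, 11.2 and 14.9 FPKM at 0 h, then 4.21, 4.26 and 3.96 at 24 h, and finally 2.73, 3.55 and 3.06 at 48 h. The B-CKO libraries had 9.70, 12.7 and 12.7 FPKM at 0 h, then 3.77, 3.88 and 3.72 at 24 h, and finally 3.05, 3.57 and 2.22 at 48 h. Every 24 h and 48 h library was below every 0 h library. The 24 h level was 2.87-fold below the 0 h level in controls (log2 fold change -1.31 ± 0.16 (SE), limma adjusted p = 5.92e-04) and 3.09-fold below it in B-CKO cells (log2 fold change -1.40 ± 0.12 (SE), limma adjusted p = 1.05e-04). A further fall to 48 h was called in control cells (adjusted p = 0.0206) and not in B-CKO cells (adjusted p = 0.111), and leaving out control replicate 1 or 2 at 24 h or replicate 3 at 48 h ended the control call (adjusted p = 0.0649, 0.0677 and 0.0603). The B-CKO fall was called with genes under 1 FPKM left out (0.0403), with the replicate block and that filter (0.0148), and without replicate 2 at 48 h (0.0299), while without replicate 3 at 48 h it was -0.15 (0.185) and the adjusted p ran up to 0.305. The ratio of Rictor to Rptor within a library, which no scaling of libraries can change, was 1.30 to 1.70 in controls and 1.30 to 1.64 in B-CKO cells at 0 h. It was 0.40 to 0.45 and 0.38 to 0.41 at 24 h, and 0.50 to 0.55 and 0.45 to 0.58 at 48 h. Rictor mRNA was therefore above Rptor mRNA, per length, in every 0 h library and below it in every LPS library.

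The inhibitory TSC pair fell in steps of different shape. Tsc1, which stabilises the complex, had 10.2, 10.2 and 11.02 FPKM at 0 h, then 5.91, 5.42 and 6.05 at 24 h, and finally 4.88, 5.86 and 5.81 at 48 h in controls, and 10.3, 10.6 and 10.2 FPKM at 0 h, then 5.56, 5.90 and 5.31 at 24 h, and finally 5.45, 6.52 and 5.01 at 48 h in B-CKO cells. It was lower in all later libraries than in all 0 h libraries and overlapped between 24 h and 48 h. At 24 h it was 1.81-fold lower than at 0 h in controls (log2 fold change -0.76 ± 0.084 (SE), limma adjusted p = 4.10e-04) and 1.85-fold lower in B-CKO cells (log2 fold change -0.79 ± 0.077 (SE), limma adjusted p = 1.85e-04), and the step to 48 h was not called in either genotype (adjusted p = 0.588 and 0.954).

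Tsc2, the subunit that acts on RHEB, had 18.4, 16.98 and 17.4 FPKM at 0 h, then 14.7, 13.7 and 14.2 at 24 h, and finally 10.54, 11.03 and 10.6 at 48 h in controls and 18.3, 18.3 and 17.2 FPKM at 0 h, then 14.2, 13.6 and 12.7 at 24 h, and finally 9.36, 10.47 and 9.74 at 48 h in B-CKO cells. It declined at each time point, and the 3 time points did not overlap in either genotype. The log2 fold changes at 24 h against 0 h were -0.29 (SE 0.066, adjusted p = 0.00985) in controls and -0.38 (SE 0.068, adjusted p = 0.00281) in B-CKO cells. Those at 48 h against 24 h were -0.37 (SE 0.044, adjusted p = 6.59e-04) and -0.42 (SE 0.063, adjusted p = 0.00165). Without control replicate 2 at 24 h the control fall of Tsc2 to 24 h had an adjusted p of 0.0506. The ratio of Tsc1 to Tsc2 went from 0.56 to 0.63 at 0 h to 0.40 to 0.43 at 24 h and 0.46 to 0.55 at 48 h in controls, and from 0.56 to 0.59 to 0.39 to 0.43 and 0.51 to 0.62 in B-CKO cells.

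Ddit4, the brake that hypoxia and glucocorticoids are known to induce, had the largest rise of the 10 genes, and it came late. The control libraries had 16.1, 12.5 and 11.6 FPKM at 0 h, then 11.2, 12.9 and 14.8 at 24 h, and finally 72.0, 92.1 and 92.1 at 48 h. The B-CKO libraries had 18.2, 13.5 and 9.76 FPKM at 0 h, then 8.88, 8.97 and 9.04 at 24 h, and finally 90.0, 90.9 and 100.1 at 48 h. The 6 libraries at 48 h were far above the other 12, while 0 h and 24 h overlapped in controls. Between 24 h and 48 h Ddit4 rose from 12.98 ± 1.80 to 85.4 ± 11.6 FPKM (SD, n = 3) in controls (log2 fold change 2.63 ± 0.13 (SE), limma adjusted p = 3.21e-05) and from 8.96 ± 0.08 to 93.7 ± 5.60 FPKM in the B-CKO group (log2 fold change 3.25 ± 0.048 (SE), limma adjusted p = 1.10e-06). At 24 h against 0 h the control log2 fold change was -0.04 (95% confidence interval -0.40 to 0.33, adjusted p = 0.851). In B-CKO cells all 24 h libraries were below all 0 h libraries, with a log2 fold change of -0.53 (adjusted p = 0.0610), which did not pass. Without B-CKO replicate 3 at 0 h the log2 fold change was -0.74 (adjusted p = 0.00601). Without replicate 1 at both time points it was -0.32 (0.193), and over all alternatives the adjusted p ran up to 0.260. The fall was also called with only genes of at least 1 FPKM (0.0328), after rescaling to TPM (-0.71, adjusted p = 0.0224), with median-ratio scaling (-0.57, 0.0296) and with array weights (0.0262).

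The 3 genes whose levels were most like that of Ddit4 over the 18 libraries were Ankrd37, Egln1 and Bnip3 (Pearson r = 0.984, 0.983 and 0.981 on the log2 scale), each a known target of hypoxia-inducible factors. The 18 points fall into 3 time points, so these values describe the course and carry no test. In a list of 10 hypoxia-response genes chosen for this pathway, all 10 were called higher at 48 h than at 24 h in both genotypes, where 20.1% and 21.7% of all genes were called higher, with median log2 fold changes of 2.53 in controls and 2.74 in B-CKO cells. Bnip3, a mitophagy receptor, went from 6.05 to 115 FPKM in controls and from 6.61 to 133 FPKM in B-CKO cells, and Ankrd37 from 4.91 to 122 and from 5.10 to 127 FPKM. The list summed to 108 to 143, 59.0 to 67.1 and 458 to 547 FPKM at 0, 24 and 48 h in controls. Of 8 glucocorticoid-induced genes, another set that responds to a known inducer of Ddit4, 6 were lower and 1 was higher at 24 h than at 0 h in both genotypes (30.7% and 32.3% of all genes lower, 26.7% and 27.5% higher). Tsc22d3, which was among the lower ones, went from 611 FPKM at 0 h to 7.77 at 24 h and 10.997 at 48 h in controls. At 48 h against 24 h, 6 glucocorticoid genes were higher in controls, and 7 higher and 1 lower in B-CKO cells, with medians of 0.41 and 0.43 (24.8% and 24% of all genes were lower).

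**Figure D2:**
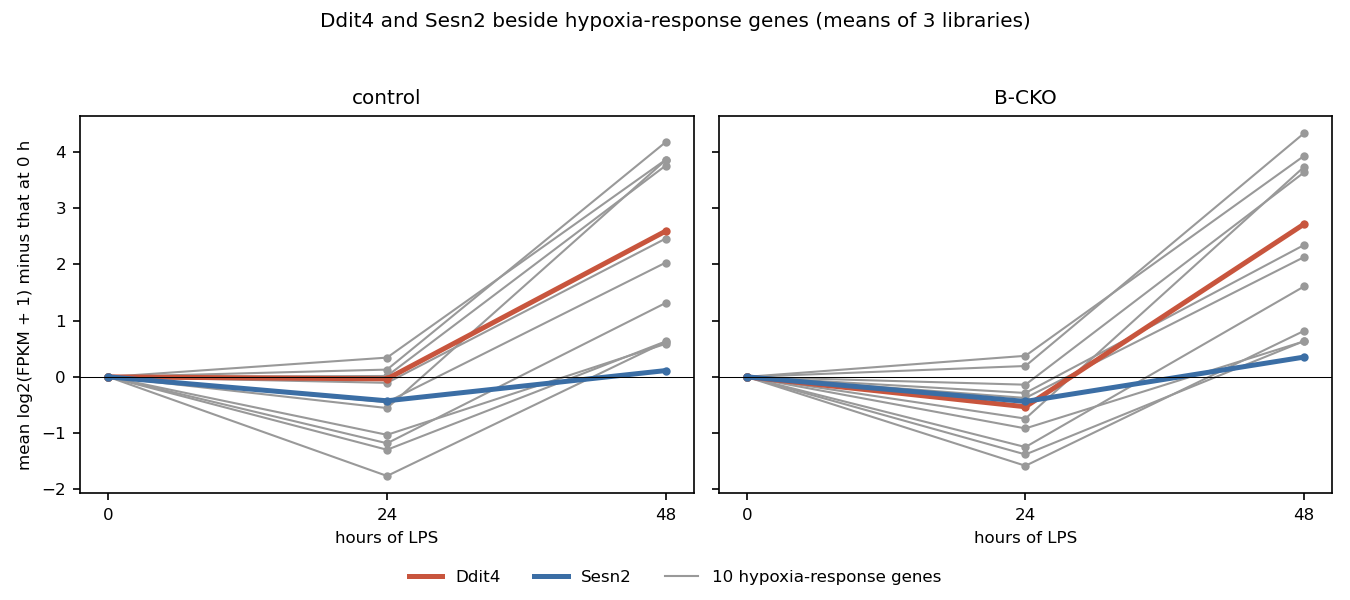
Mean log2(FPKM + 1) of 3 libraries at each time point minus that at 0 h (vertical axes) against hours of LPS (horizontal axes) for Ddit4 (red), Sesn2 (blue) and 10 hypoxia-response genes (grey) in control and B-CKO cells. All 10 grey lines and both coloured lines go up between 24 h and 48 h, Ddit4 by 2.63 in controls and 3.25 in B-CKO cells and Sesn2 by 0.54 and 0.79.

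The sestrins differed in level and in course. Sesn1, a target of p53 and FoxO factors, was the most abundant. Its control libraries had 53.3, 87.0 and 66.7 FPKM at 0 h, then 13.9, 13.2 and 13.8 at 24 h, and finally 19.9, 19.9 and 21.0 at 48 h. Its B-CKO libraries had 57.7, 123.05 and 57.7 FPKM at 0 h, then 12.8, 12.5 and 12.6 at 24 h, and finally 23.1, 23.7 and 25.6 at 48 h. No time point overlapped with another in either genotype, with the order 0 h, 48 h, 24 h, and replicate 2 was the highest at 0 h in both genotypes. Sesn1 was 5.06-fold lower at 24 h than at 0 h in controls (log2 fold change -2.23 ± 0.17 (SE), limma adjusted p = 8.37e-05) and 6.30-fold lower in B-CKO cells (log2 fold change -2.47 ± 0.29 (SE), limma adjusted p = 4.34e-04). It then rose 1.49-fold to 48 h in controls (log2 fold change 0.54 ± 0.040 (SE), limma adjusted p = 1.13e-04) and 1.91-fold in B-CKO cells (log2 fold change 0.88 ± 0.049 (SE), limma adjusted p = 2.57e-05).

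Sesn2, the sestrin known as a leucine sensor and an ATF4 target, was low throughout. Control libraries had 4.90, 5.49 and 7.21 FPKM at 0 h, then 3.86, 3.91 and 4.44 at 24 h, and finally 6.31, 6.60 and 6.14 at 48 h. B-CKO libraries had 4.14, 5.29 and 5.79 FPKM at 0 h, then 3.94, 3.88 and 2.67 at 24 h, and finally 6.11, 6.44 and 7.62 at 48 h. In each genotype every 24 h library was below every 0 h and every 48 h library. The 0 h libraries lay below the 48 h libraries in B-CKO cells and overlapped with them in controls. The rise to 48 h was called in both genotypes, with log2 fold changes of 0.54 (SE 0.068, adjusted p = 9.18e-04) and 0.79 (SE 0.14, adjusted p = 0.00334). The lower level at 24 h than at 0 h was just past the threshold in controls (log2 fold change -0.43, adjusted p = 0.0459) and not past it in B-CKO cells (log2 fold change -0.44, adjusted p = 0.0620). The B-CKO value was called with genes under 1 FPKM left out or after rescaling to TPM (adjusted p = 0.0322 and 0.0237), but it was -0.21 without replicate 3 at both time points (0.303). The control call was lost on leaving out any of the 24 h libraries or replicate 2 or 3 at 0 h, with adjusted p between 0.0554 and 0.133. Of 15 genes of the ATF4 stress response, 8 were higher and 4 lower at 24 h than at 0 h in controls, where 26.7% of all genes were higher and 30.7% lower. The serine synthesis enzymes Psat1 and Phgdh and the mitochondrial folate enzyme Mthfd2 were among the higher ones (log2 fold changes 3.40, 1.92 and 3.20), and the stress phosphatase subunit Ppp1r15a was lower (-4.04).

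Sesn3, a target of FoxO factors, fell early and stayed low. Control libraries had 35.0, 32.1 and 35.3 FPKM at 0 h, then 13.8, 11.9 and 13.1 at 24 h, and finally 11.8, 11.4 and 11.5 at 48 h. B-CKO libraries had 29.6, 31.9 and 32.9 FPKM at 0 h, then 12.4, 11.8 and 12.3 at 24 h, and finally 10.03, 13.4 and 11.5 at 48 h. All libraries at 0 h were above all later ones. The 48 h libraries were below all 24 h libraries in controls and spread around them in B-CKO cells. The 24 h level was 2.64-fold below that at 0 h in controls (log2 fold change -1.34 ± 0.078 (SE), limma adjusted p = 3.01e-05) and 2.59-fold below it in B-CKO cells (log2 fold change -1.30 ± 0.064 (SE), limma adjusted p = 1.10e-05). The step to 48 h was called in neither (adjusted p = 0.0900 and 0.647). The control value, -0.15, ran over the alternatives from -0.083 with median-ratio scaling (adjusted p = 0.314) to -0.20 without replicate 2 at 24 h (0.0272), and it was called after rescaling to TPM as well (0.0455). The sum of the 3 sestrins was 93.2 to 125 FPKM in controls and 91.4 to 160.3 FPKM in B-CKO cells at 0 h. It was 29.0 to 31.6 and 27.5 to 29.2 FPKM at 24 h, and 38.0 to 38.7 and 39.2 to 44.8 FPKM at 48 h. Sesn2 made up 4.41 to 6.60% of that sum in control libraries at 0 h, 12.2 to 14.2% at 24 h and 15.9 to 17.4% at 48 h, without overlap between the time points. The counterpart shares in B-CKO libraries were 3.30 to 6.003%, 9.71 to 13.8% and 14.8 to 17.01%.

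FoxO factors are inhibited by AKT and drive genes of quiescence and homing. Of 12 genes of these factors and their targets, 11 were lower and none higher at 24 h than at 0 h in both genotypes, where 30.7% and 32.3% of all genes were called lower, with medians of -1.78 in controls and -2.02 in B-CKO cells. The list includes the factors Foxo3 and Foxo4 (log2 fold changes -1.44 and -1.76 in controls) and the homing genes Klf2 and S1pr1 (-3.51 and -4.16). From 24 h to 48 h, 8 of the 12 rose and 1 fell in controls, and 10 rose and 1 fell in B-CKO cells (medians 0.42 and 0.55), where 20.1% and 21.7% of all genes rose and 24.8% and 24% fell. Of 12 p53 targets, 5 were higher and 4 lower at 24 h than at 0 h in each genotype (26.7% and 27.5% of all genes higher, 30.7% and 32.3% lower), with the kinase Plk2 (-6.70) and the BH3-only gene Pmaip1 (-2.55) lower, the apoptosis effector Bax (0.96) higher and Mdm2 (-0.60), the ligase that degrades p53, lower in controls. Over the 18 libraries Sesn3 correlated with Tsc1 and Rictor at Pearson r = 0.980 and 0.970 on the log2 scale and Sesn1 with Tsc1 at 0.901, whereas Ddit4 correlated with Rptor at -0.907. These are descriptions over libraries that share time points.

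Rragd, 1 of the 4 Rag GTPase genes and a known target of the lysosomal factors TFEB and TFE3, was near the lower end of what the table can resolve. Control libraries had 0.79, 0.84 and 2.12 FPKM at 0 h, then 0.04, 0.06 and 0.05 at 24 h, and finally 0.23, 0.31 and 0.25 at 48 h. B-CKO libraries had 0.72, 0.87 and 2.11 FPKM at 0 h, then 0.09, 0.04 and 0.06 at 24 h, and finally 0.34, 0.24 and 0.31 at 48 h. The 3 time points did not overlap in either genotype, and replicate 3 at 0 h was above 2 FPKM in both genotypes while replicates 1 and 2 were below 1 FPKM. On the log2(FPKM + 1) scale, which understates changes of such low genes, the fall to 24 h was -1.05 (SE 0.21, adjusted p = 0.00585) in controls and -1.02 (SE 0.22, adjusted p = 0.00646) in B-CKO cells. The rise to 48 h was 0.27 (SE 0.028, adjusted p = 4.28e-04) and 0.29 (SE 0.035, adjusted p = 6.47e-04). With a pseudocount of 0.1 the falls were -3.04 and -2.90 and the rises 1.27 and 1.28. Leaving out replicate 2 at both time points ended the call of the B-CKO fall (adjusted p = 0.0609). The lower level at 48 h than at 0 h was no longer called on leaving out any 48 h library, in controls (0.0504 to 0.0607) or in B-CKO cells (0.0609 to 0.0804). The values are given to 2 decimals and the depth behind them is not known, so no counting error can be given. Rragc, the paralogue that can take its place beside Rraga or Rragb, had means between 26.3 and 38.0 FPKM over the 6 groups and was not called at 24 h in controls (adjusted p = 0.199).

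Of the 13 lysosomal genes of TFEB, 11 were lower and 1 was higher at 24 h than at 0 h in both genotypes, where 30.7% and 32.3% of all genes were called lower and 26.7% and 27.5% higher, with medians of -1.04 in controls and -1.03 in B-CKO cells. Hexa, which encodes a subunit of a lysosomal hexosaminidase, fell by 1.04, the sialidase Neu1 fell by 2.10 and Uvrag, which acts in autophagy, fell by 1.03 on the log2 scale in controls. From 24 h to 48 h, 9 of the 13 rose in each genotype, while 3 fell in controls and 1 fell in B-CKO cells (20.1% and 21.7% of all genes higher, 24.8% and 24% lower).

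The other subunits and partners of the pathway did not share 1 direction. Among 10 further subunits and assembly factors of the mTOR complexes, 6 were higher and 2 lower at 24 h than at 0 h in controls, and 6 higher and 3 lower in B-CKO cells. At 24 h against 0 h, all counts of lists given here stand beside 26.7% of all genes higher and 30.7% lower in controls and 27.5% and 32.3% in B-CKO cells. The higher ones included Tbc1d7, the third subunit of the TSC complex (log2 fold change 1.32), the assembly factors Telo2 and Tti1 (0.57 and 0.50) and Akt1s1, which encodes the mTORC1 inhibitor PRAS40 (0.47). At 48 h against 24 h 7 of these 10 were lower in each genotype (24.8% and 24% of all genes). Of 9 Rag and Ragulator genes, 3 were higher and 1 lower at 24 h in controls, with the lysosomal anchors Lamtor5, Lamtor1 and Lamtor3 higher (0.90, 0.51 and 0.47). Of 16 genes of the Rag-regulating complexes and nutrient sensors, 5 were higher and 5 lower in each genotype, with Sec13, Seh1l and Mios of the activating GATOR2 complex higher (1.33, 1.00 and 0.67). Of 13 genes upstream of TSC and mTORC1, 2 were higher and 6 lower in controls. Akt1, which encodes a kinase that inhibits TSC, rose (1.02), and Stk11 and Prkab1 of the AMPK arm fell (-0.45 and -0.58). Of 16 genes of mTORC1 substrates and factors further downstream, 4 were higher and 8 lower at 24 h in each genotype. In controls the cap-binding factor Eif4e rose (1.66). The translation inhibitor Pdcd4 (-2.33), the RNA polymerase III repressor Maf1 (-1.20) and the autophagy gene Atg13 (-0.92) fell there.

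**Figure D3:**
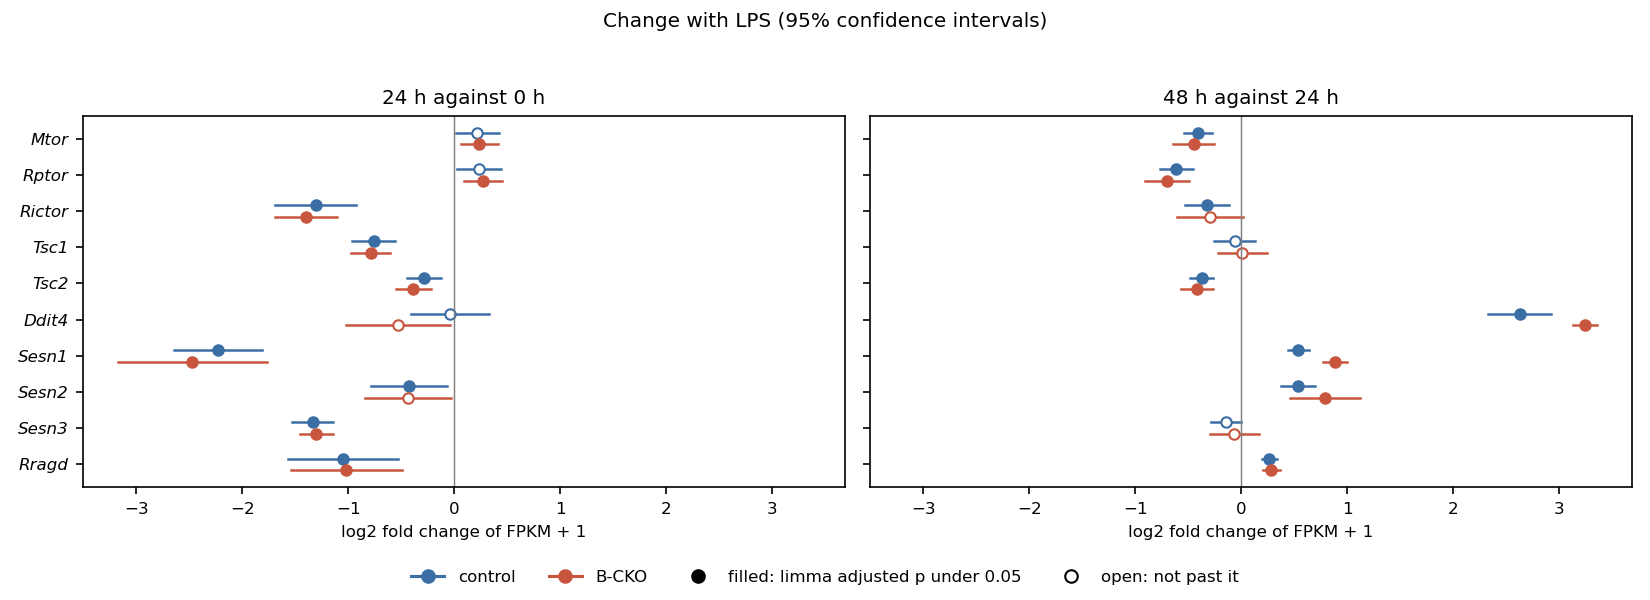
Log2 fold change of FPKM + 1 with 95% confidence intervals (horizontal axis) for each of the 10 genes at 24 h against 0 h (left) and at 48 h against 24 h (right) in control (blue) and B-CKO (red) cells; filled points passed limma's adjusted p of 0.05 and open points did not. On this scale Sesn1 has the lowest value at 24 h in both genotypes (-2.23 and -2.47), where a pseudocount of 0.1 puts the low Rragd below it (Rragd -3.04 and -2.90), and at 48 h Ddit4 has the highest (2.63 and 3.25).

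Loss of Zbtb24 was compared with control at each time point, since mTORC1 was a pathway of interest in the study's Zbtb24-deficient B cells. No member differed between genotypes at an adjusted p under 0.05 at 0, 24 or 48 h. At 24 h, Ddit4 was lower in every B-CKO library, with 8.88, 8.97 and 9.04 FPKM against 11.2, 12.9 and 14.8 FPKM in controls, a 1.45-fold difference of the means and the largest of the 10 genes. At 48 h, Sesn1 was higher in every B-CKO library, with 23.1, 23.7 and 25.6 FPKM against 19.9, 19.9 and 21.0 FPKM, which is 1.19-fold. The background was low in these comparisons: limma tested 15641, 15104 and 15210 genes at the successive time points and called 0%, 0.0993% and 0.046%.

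At 0 h, where libraries of the same number deviated together in both genotypes, the log2 fold changes of the 10 genes ran from -0.17 (Sesn2) to 0.13 (Sesn1), and 0 of 10 had even an unadjusted limma p under 0.05, against 2% of all genes. No member had genotypes without overlap, against 1.92% of genes higher and 1.94% lower. The intervals, from the fit without the numbers as a block, were wide for the genes that varied between libraries. On the log2(FPKM + 1) scale the 95% interval of the difference was -0.67 to 0.94 for Sesn1, -0.75 to 0.72 for Rragd, -0.61 to 0.27 for Sesn2 and -0.55 to 0.58 for Ddit4. Within replicate numbers, B-CKO Sesn2 was 0.845, 0.964 and 0.803 times control and Sesn3 0.843, 0.995 and 0.932 times, and these were the 2 members lower in every pair. Neither passed with the numbers as a block (limma adjusted p = 0.883 and 0.888). Sesn1 was 1.08, 1.41 and 0.866 times control and Ddit4 1.13, 1.08 and 0.844 times. Rragd was 0.911, 1.04 and 0.995 times control, so its wide interval holds a spread that the same numbers shared in both genotypes.

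At 24 h the replicates were tighter. Ddit4 had a log2 fold change of -0.48 (SE 0.089, 95% interval -0.69 to -0.27, unadjusted p = 0.00117, adjusted p = 0.0933 by limma), and it was called once genes under a mean of 1 FPKM were left out of the fit (adjusted p = 0.0159). Over all alternatives its adjusted p ran from 0.0130 to 0.395. Up to 704 of all genes, rather than 15, were called under the alternatives with this filter, so the low background does not hold there. Sesn1 was lower in every B-CKO library too (12.8, 12.5 and 12.6 against 13.9, 13.2 and 13.8 FPKM), with a log2 fold change of -0.10 (SE 0.035, adjusted p = 0.209), and so was Rictor (3.77, 3.88 and 3.72 against 4.21, 4.26 and 3.96 FPKM; -0.10, SE 0.054, adjusted p = 0.406). These 3 of 10 genes compare with 11.7% of all genes whose B-CKO libraries were all lower (8.43% were all higher), and 2 of 10 genes had an unadjusted p under 0.05, against 16.3% of all genes. B cell markers were lower in the same libraries (2045 to 2119.5 against 2351 to 2529.5 FPKM summed, with 1 of 6 called lower), as were T cell markers (9.93 to 11.6 against 12.6 to 15.4 FPKM). Their part in the member differences was not tested. For Mtor and Rptor the intervals at 24 h were -0.11 to 0.07 and -0.13 to 0.09. Rragd was too low at this time point for its interval to bound a fold change, and was 2.25, 0.667 and 1.2 times control within replicate numbers.

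At 48 h Sesn1 differed by 0.24 on the log2 scale (SE 0.052, 95% interval 0.11 to 0.36, unadjusted p = 0.00272, adjusted p = 0.290 by limma), with the range of adjusted p over the alternatives from 0.0629 to 0.937. It was the 1 member with an unadjusted p under 0.05, against 7.71% of all genes, and all B-CKO libraries were higher in 4.89% of genes. In the same libraries T cell markers summed to 9.06 to 10.3 against 12.98 to 13.4 FPKM in controls and myeloid markers to 3.52 to 4.93 against 5.33 to 6.91 FPKM, without overlap. B cell markers overlapped (2379 to 2648 against 2409 to 2579 FPKM), with 1 of 6 called lower. The part of these markers in the difference was not tested. Tsc2 was lower in every B-CKO library (9.36, 10.47 and 9.74 against 10.54, 11.03 and 10.6 FPKM; -0.11, adjusted p = 0.748), as were 6.24% of all genes. Ddit4 overlapped between genotypes (0.14, 95% interval -0.10 to 0.38). Rragd, at 0.24 to 0.34 FPKM in B-CKO cells, was 1.48, 0.774 and 1.24 times control within replicate numbers. The hypoxia list summed to 538 to 575 FPKM in B-CKO and 458 to 547 FPKM in control libraries. None of the pathway lists had a called gene in any of the 3 genotype comparisons. By overlap alone, at 24 h all B-CKO libraries were lower in 7 of 12 FoxO genes, 4 of 12 p53 targets and 4 of 6 B cell markers, against 11.7% of all genes, and in 3 or fewer genes of every other list. Sesn1 lies on chromosome 10 at 41810574 to 41908436 (GRCm38.p6), 345 kb from Zbtb24 (41450358 to 41465582), with 6 protein-coding genes between them.

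**Figure D4:**
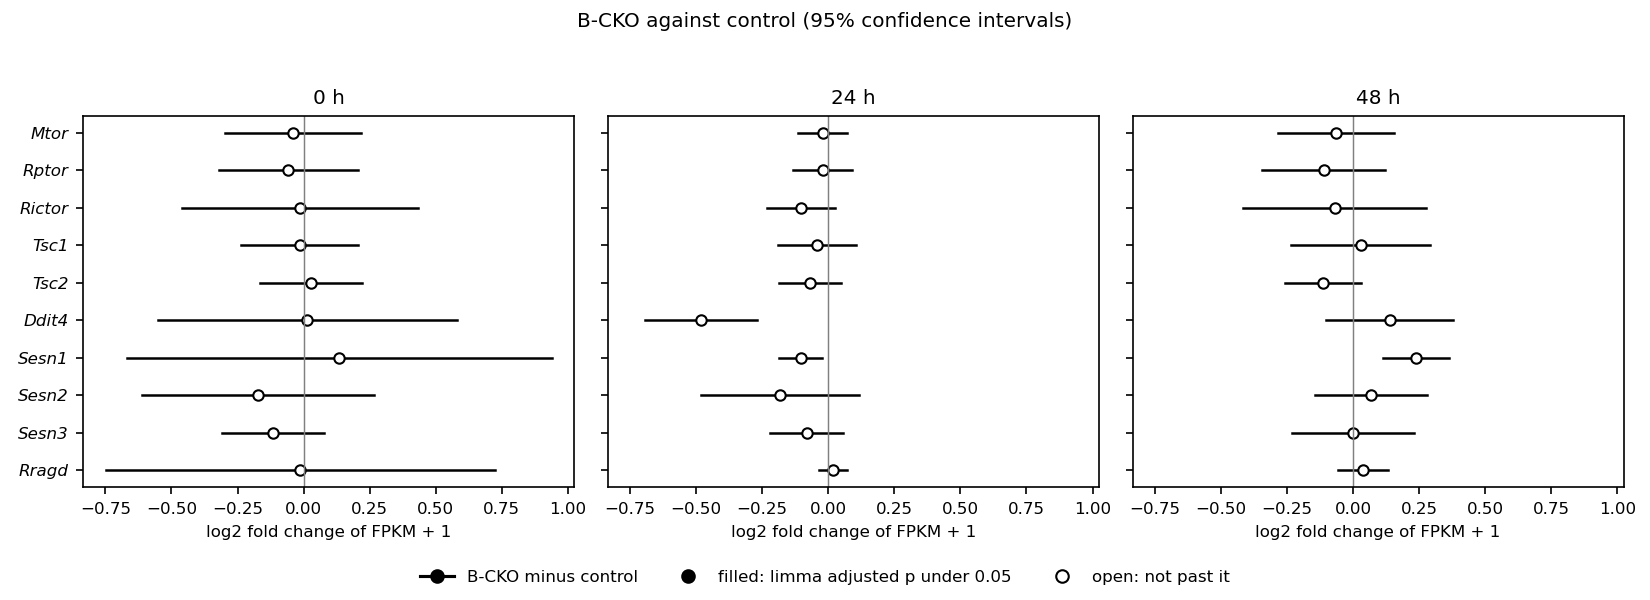
Log2 fold change of FPKM + 1, B-CKO against control, with 95% confidence intervals (horizontal axis, same scale in all panels) for the 10 genes at 0, 24 and 48 h; open points did not pass limma's adjusted p of 0.05. All points are open, and only Ddit4 at 24 h (-0.48), Sesn1 at 24 h (-0.10) and Sesn1 at 48 h (0.24) have intervals that leave out 0.

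Whether the genotypes differed in how they changed with LPS was tested as an interaction. No gene of the table passed in any of the 3 tests (0% called by limma; unadjusted p under 0.05 in 2.89%, 7.31% and 2.6% of genes for 24 h against 0 h, 48 h against 24 h and 48 h against 0 h). From 24 h to 48 h the rise of Ddit4 was larger in B-CKO cells by 0.62 on the log2 scale (SE 0.15, unadjusted p = 0.00158, adjusted p = 0.456), and that of Sesn1 by 0.34 (SE 0.059, unadjusted p = 1.42e-04, adjusted p = 0.399). The other 8 members had unadjusted p above 0.05 in this test, and so did all 10 in the remaining ones. With replicate number within genotype as a block and genes under 1 FPKM left out, the interaction of Ddit4 passed (limma adjusted p = 0.0154). That block joins same-numbered libraries of 24 h and 48 h, which were taken as paired in B-CKO cells and not in controls.

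The members' nearest genes over the 18 libraries show which other genes took the same course. Mtor and Rptor were each among the other's 3 closest (r = 0.963), beside Otud4 and Btaf1 for Mtor and Ccnyl1 and Mdn1, a ribosome assembly ATPase, for Rptor. Rictor was closest to the receptor gene Notch2 (0.996), Map3k2 and Pcf11, Tsc1 to Usp48, Ccdc82 and Synrg, and Tsc2 to the topoisomerase Top3b (0.995), Kat6a and Inpp5f. Sesn1 was closest to Syk, the kinase downstream of the B cell receptor (0.990), Srgn and the histone gene H2bc4, and Sesn3 to Arid5b (0.994), Zswim8 and Mcmdc2. Sesn2 was closest to Vegfa (0.927), Carhsp1 and Slc2a1 (0.907), of which Vegfa and the glucose transporter Slc2a1 are in the hypoxia list. Vegfa went from 1.52 to 8.59 FPKM and Slc2a1 from 23.3 to 73.6 FPKM between 24 h and 48 h in controls. Rragd was closest to a gene with no symbol in the table used (NCBI gene ID 20905; 0.980), Wbp2 and the stress kinase gene Eif2ak3. High values are easy to reach here, since 18 libraries fall into 3 time points.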

How the data were processed

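RNA-seq libraries of 18 samples, 3 of each genotype at each time point, were analysed from the deposited FPKM values (fragments scaled to gene length and library size), which the authors computed per gene after alignment to mm10. BWA, Bowtie2, RSEM and DESeq2 are listed by the authors in their processing notes. The values carry no counts, so the depth behind them is unknown and count tests were not used. All 18 columns were matched to a sample by name. Of 16545 gene IDs, 16512 matched a RefSeq symbol and 33 did not.

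For each pair of groups, log2(FPKM + 1) was fitted with limma 3.58.1 (R 4.3.3, lmFit and eBayes with trend) over all genes above 0 FPKM in any library compared, and p-values were adjusted by Benjamini-Hochberg over those genes, with a call at an adjusted p under 0.05. Exact tests of 3 against 3 libraries cannot go below 0.1, so none was used. The response of the genotypes to LPS was compared by an interaction contrast over 12 libraries. The procedure was also run on simulated data with independent noise in each library. The outcome is not given here and no support is drawn from it. Promoters came from RefSeq on GRCm38.p6. The 10 genes, the 17 gene lists and the tests were chosen with earlier results of these data known, and so is the choice of the genes named from each list: the 4 with the smallest adjusted p in controls at 24 h against 0 h among those of at least 5 FPKM on average (all genes of lists of 5 or fewer), and for each member the 3 genes of at least 5 FPKM with the highest Pearson correlation. Values named for other genes were chosen after they were seen. Some genes that this rule names are not reported here. Alternatives were a pseudocount of 0.1, a filter of 1 FPKM, rescaling to TPM, median-ratio scaling, array weights, replicate number as a block, and leaving out libraries.

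Same-numbered libraries deviated together between genotypes at 0 h (r = 0.854, 0.468 and 0.789) and between 24 h and 48 h in B-CKO cells (0.126, 0.183 and 0.117), and there the numbers were taken to pair the libraries. In the other comparisons they were not, by a rule of r over 0.1 for every number. The genotype comparison at 24 h came close to it (r = 0.103, 0.200 and 0.091).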

Additional observations from a re-analysis of the deposited data

Results flagged for a closer look

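The genotype difference of Sesn1 had opposite directions at 24 h and 48 h: every B-CKO library was below every control library at 24 h, with B-CKO against control ratios within replicate numbers of 0.918, 0.946 and 0.910, and above every control library at 48 h, with ratios of 1.16, 1.19 and 1.22. The difference between these log2 fold changes was 0.34 and was tested as an interaction, which did not pass over all genes (limma adjusted p = 0.399). It was picked out because all libraries moved one way at one time point and the other way at the other, and its adjusted p ran from 0.193 to 0.860 over the alternatives.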

How the results depend on the processing

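Counts of members called kept within 1.5 times of their value under nearly all alternatives. The exceptions were the genotype comparison at 24 h, with 1 member called (Ddit4) rather than 0 when only genes of at least 1 FPKM were kept (adjusted p = 0.0159) or when that filter went with the replicate block (0.0130), and the genotype-by-time test of 48 h against 24 h, with 1 (Ddit4) under the block with the filter. In B-CKO cells at 24 h against 0 h, 5 to 9 members were called on leaving out libraries, where the full data gave 8 and replicate 2 left out gave 5. The block by replicate number changed no member's call where the numbers paired the libraries (genotype at 0 h, with 0 called, and B-CKO cells at 48 h against 24 h). Elsewhere the B-CKO rises of Mtor and Rptor to 24 h had adjusted p of 0.0710 and 0.0661 with the block. The control fall of Rptor at 48 h against 0 h had 0.0501 with it. Over all genes, the genotype comparison called 15 genes at 24 h, 388 with the 1 FPKM filter, 5 with the block and 704 with both, and 0 to 8 on leaving out libraries. At 48 h it called 7, 29, 3 and 116, and 0 to 6. At 0 h it called 0, and 22 with the block and the filter.

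Rescaling to TPM turned the sign of 3 small differences: Sesn3 between genotypes at 48 h (-0.022), Sesn2 in controls at 48 h against 0 h (-0.073) and Tsc1 in B-CKO cells at 48 h against 24 h (-0.039). It moved the median log2 fold change of all genes of at least 1 FPKM in controls from 0.017 to -0.14 at 24 h against 0 h and from -0.011 to -0.21 at 48 h against 0 h. On leaving out libraries, the sign turned for these values, given as lowest to highest. Between genotypes at 0 h they were -0.19 to 0.22 for Ddit4, -0.095 to 0.010 for Mtor, -0.14 to 0.15 for Rictor, -0.28 to 0.25 for Rragd, -0.22 to 0.31 for Sesn1, -0.050 to 0.029 for Tsc1, -0.0089 to 0.059 for Tsc2. At 24 h they were -0.044 to 0.013 for Mtor, -0.073 to 0.014 for Rptor, -0.0069 to 0.041 for Rragd, -0.29 to 0.0074 for Sesn2, -0.12 to 0.015 for Tsc1. At 48 h they were -0.15 to 0.0065 for Mtor, -0.18 to 0.070 for Rictor, -0.0058 to 0.096 for Rragd, -0.035 to 0.12 for Sesn2, -0.11 to 0.11 for Sesn3, -0.062 to 0.13 for Tsc1. Over time they were -0.22 to 0.19 for Ddit4 in controls at 24 h against 0 h, -0.14 to 0.023 for Tsc1 in controls and -0.081 to 0.081 for Tsc1, -0.18 to 0.048 for Sesn3 in B-CKO cells at 48 h against 24 h. In the genotype-by-time tests, where the values of single genes on leaving out libraries were computed for Ddit4 and Sesn1 only, they were -0.42 to 0.12 for Sesn1 at 24 h against 0 h, and -0.085 to 0.33 for Ddit4, -0.086 to 0.46 for Sesn1 at 48 h against 0 h. The cause was not tested. With 3 libraries per group, small differences between genotypes have no settled direction.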
